A study of Schizosaccharomyces pombe
Saccharomyces cerevisiae with 8 samples.

Results

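The spliceosomal small nuclear RNAs (snRNAs) that RNA polymerase II transcribes in budding yeast, Saccharomyces cerevisiae, are U1, U2, U4 and U5. They were taken by gene ID: LSR1 (U2), snR19 (U1), snR14 (U4) and the long and short forms of U5, snR7-L and snR7-S. Of these 5 IDs, 4 were listed among the 6808 genes of the deposited tables for newly synthesized RNA (nsRNA, 6741 genes) and total RNA (6605 genes). The short form of U5 was not analysed here. U2, U1 and U4 had enough counts to be tested in both kinds of RNA, and the long form of U5 did not. After auxin, in a strain with a degron on the initiation factor Sua7, new U2, U1 and U4 RNA fell to a similar small remainder. In total RNA U4 fell by almost as much, and U2 and U1 did not pass the test unless the replicate number was a block.

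All 8 libraries came from 1 strain, GZY364, a haploid of mating type MATalpha. Its genotype is ade2Δ::hisG, his3Δ200, leu2Δ0, lys2Δ0, met15Δ0, trp1Δ63 and ura3Δ0, with his3::pGPD1-OsTIR1-HIS3, which expresses the rice receptor OsTIR1 from the GPD1 promoter, and SUA7-3V5-IAA7-kanMX6, the auxin-dependent degron on Sua7. Sua7 is the yeast form of TFIIB, which places RNA polymerase II at the promoter. Cultures in rich medium at mid-log phase received 500 µM auxin (3-indole acetic acid) or its carrier DMSO for 30 min, and all then received 5 mM 4-thiouracil, a base analog that enters RNA as it is made, for 6 min. S. cerevisiae cells were mixed with S. pombe cells at 1 to 3 before RNA extraction, and total RNA and the labelled RNA purified from it were sequenced after depletion of ribosomal RNA. This gave 4 groups of 2 libraries: nsRNA and total RNA, each with DMSO and with auxin. No strain without the degron received auxin, so an effect of auxin itself and loss of Sua7 cannot be told apart, and Sua7 protein was not measured. The series' design text calls the numbered samples biological replicates, and nothing says that they were separate cultures. The p-values therefore measure spread between these samples. edgeR estimates that spread with information shared across genes, so a gene's SE need not match the spread of its own libraries.

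The snRNAs are the RNA part of the spliceosome, the machine that removes introns from messenger RNA precursors. U1 pairs with the start of the intron and U2 with its branch point. U4 arrives bound to U6 in a particle that also holds U5, keeps U6 inactive until the spliceosome is activated, and then leaves, while U5 holds the exons. In yeast these RNAs are stable, carry a cap and bind a ring of Sm proteins. Their transcription can end by the Nrd1, Nab3 and Sen1 pathway, with trimming by the nuclear exosome. U6 (snR6) is made by RNA polymerase III and serves here as a reference, beside SCR1, which forms the signal recognition particle, and RPR1, the RNA of RNase P, which are also RNA polymerase III transcripts.

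Total counts were 9496247 and 11779971 in the nsRNA libraries with DMSO, 1291241 and 1753672 with auxin, and between 7010247 and 10543351 in the 4 total RNA libraries. Counts below are scaled by the factor that the authors deposited for each library, called scaled counts, unless they are said to be raw. The libraries of each group differed by more than sampling noise, with a chi-square per degree of freedom of 2.89 to 13.9. MATalpha genes were present at high counts in every DMSO library (raw counts of STE3 of 2337 to 7128), and the MATa gene BAR1 had 8 to 29 raw counts in each library. SUA7 RNA fell, with log2 changes of -3.64 in nsRNA and -2.68 in total RNA (edgeR adjusted p = 6.62e-23 and 3.64e-22), and turned positive in nsRNA with a scaling that centres the typical gene, to 0.39. Since the tag directs degradation of the Sua7 protein, its RNA is no check of the labels.

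LSR1 lies on chromosome II, 680688 to 681862 in sacCer3, and is 1175 bases long. snR19 lies on chromosome XIV, 230105 to 230672, with 568 bases, and snR14 on chromosome V, 167427 to 167586, with 160 bases. snR7-L spans 939459 to 939672 on chromosome VII, 214 bases. U2 and U1 of this yeast are much longer than their human counterparts. No other listed gene overlapped any of the 4 loci.

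The scaled counts per length of transcript spanned several orders of magnitude, and U2 had the highest value of the 4 in both kinds of RNA. How well RNAs of different length were recovered was not measured. Among 75 small nucleolar RNAs, described below, the total RNA level per kb with DMSO went up with length (Spearman's rho 0.51). The values thus compare counts and need not give the relative amounts of these RNAs in the cell. Whether the total RNA counts of U4 stand for its mature pool was not tested. In total RNA with DMSO, U2 stood at 275800 ± 40940 scaled counts per kb and U1 at 152932 ± 2527 (SD, n = 2 each), the 2nd and the 4th highest of 6605 genes after SCR1 in 1st place. U4 reached 601 ± 108 scaled counts per kb and ranked 1755th. U5 in its long form stood at 2.46 ± 3.48, and the reference U6 at 43.4 ± 18.4. U2 and U1 lay further apart than their spread, and so did U1 and U4, whereas the values of the long U5 rest on at most 2 raw counts in a library. In nsRNA with DMSO the order was the same, with U2 at 37297 ± 2880, U1 at 16753 ± 1563 and U4 at 2804 ± 490 scaled counts per kb, ranked 21st, 67th and 835th of 6741 genes. The distance between U2 and U4 in counts per kb was thus far smaller in new than in total RNA.

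**Figure D1:**
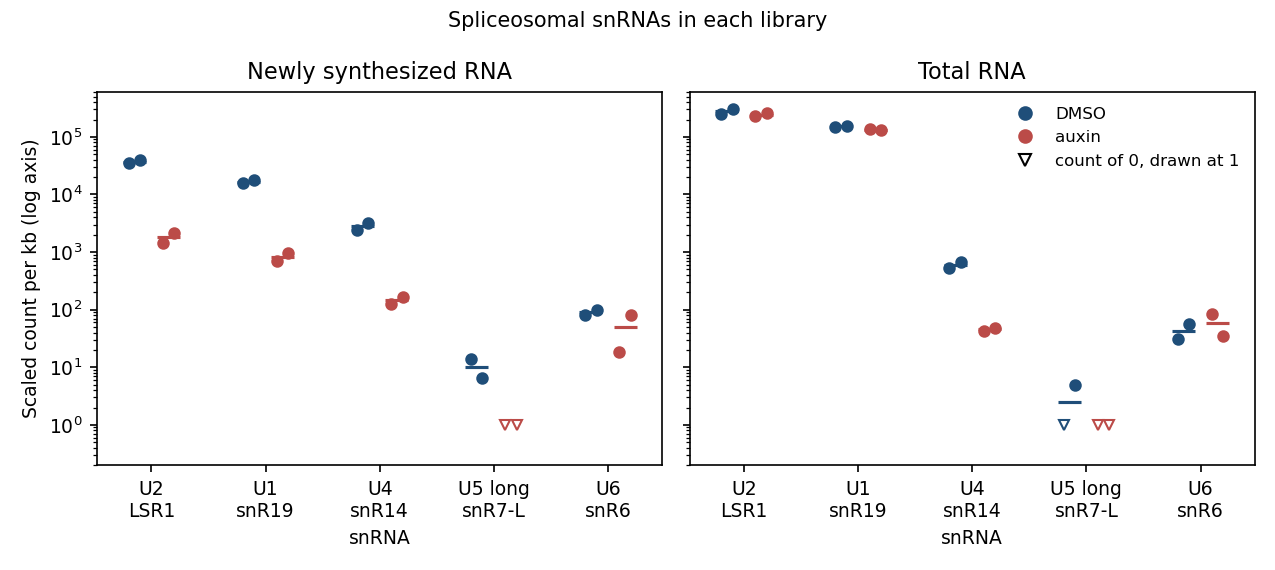
Scaled counts per kb of the 4 listed snRNAs and U6 in each of the 8 libraries on a log axis, newly synthesized RNA at left and total RNA at right; points are libraries, bars are group means and open triangles mark counts of 0 drawn at 1. In nsRNA the auxin libraries of U2, U1 and U4 lie below the DMSO libraries, and in total RNA U4 shows such a gap on this axis.

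The first comparison asked how much of each snRNA was left in new RNA after auxin. No library came from unlabelled cells, so carry-over of unlabelled RNA in the purification was not measured. New U2 RNA had 41431 and 46217 scaled counts with DMSO and 1691 and 2521 with auxin. The auxin libraries lay far below the DMSO libraries with no overlap. The log2 change was -4.38 (SE 0.39, edgeR adjusted p = 3.42e-29), which leaves 4.81% of the DMSO level. New U1 RNA had 8888 and 10144 scaled counts with DMSO and 396 and 553 with auxin, again without overlap. Its log2 change was -4.33 (SE 0.39, edgeR adjusted p = 4.66e-28), which leaves 4.99%. New U4 RNA had 393 and 504 scaled counts with DMSO and 20.1 and 26.9 with auxin. These groups did not overlap either, and the auxin values rest on 29 and 39 raw counts. The log2 change of U4 was -4.25 (SE 0.36, edgeR adjusted p = 4.65e-31), which leaves 5.27%.

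The 3 values differed by less than their standard errors. A fall of new RNA was the rule in these libraries: all 3 tested snRNAs were called lower, as were 97.6% of the 5800 genes tested in nsRNA, and 1.31% were called higher. The median gene changed by -4.08, so that U2, U1 and U4 lay 0.30, 0.25 and 0.17 below it. With TMM factors, which set the typical gene near 0 (median -0.03), U2 changed by -0.36 and U1 by -0.30 (edgeR adjusted p = 0.00259 and 0.00417), and U4 by -0.22 without passing the test (edgeR adjusted p = 0.331). In bulk samples, fewer cells and less RNA per cell cannot be told apart. SCR1 changed by -0.55 and RPR1 by 0.09 in nsRNA, and neither passed the test (edgeR adjusted p = 0.0951 and 0.785), although SCR1 passed without either auxin library (adjusted p = 0.00131 and 1.02e-05).

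A ratio inside a library does not depend on any scaling factor. New U2 RNA per kb was 20.8 and 23.3% of new SCR1 RNA with DMSO and 1.33 and 1.75% with auxin. For U1 the same ratio went from 9.21 and 10.6% to 0.645 and 0.793%, and for U4 from 1.45 and 1.87% to 0.116 and 0.137%. All 3 snRNAs thus lost ground against this RNA polymerase III transcript in both auxin libraries. With 2 libraries against 2, an exact two-sided permutation test cannot go below p = 0.333, so these ratios are given as values.

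The second comparison asked what was left of each snRNA in total RNA after the same treatment, and here the snRNAs parted. Total U2 RNA had 290050 and 358080 scaled counts with DMSO and 266914 and 299986 with auxin. The ranges overlapped, and the log2 change of -0.19 (SE 0.18, 95% interval -0.55 to 0.16) did not pass (edgeR adjusted p = 0.3). Total U1 RNA had 85850 and 87880 scaled counts with DMSO and 76418 and 73248 with auxin. The 2 auxin libraries of U1 lay below both DMSO libraries, and the log2 change of -0.22 (SE 0.20, 95% interval -0.62 to 0.19) did not pass (edgeR adjusted p = 0.305). That SE draws on spread shared across genes, not on the U1 values alone. On these values 87.5% of U2 and 86.1% of U1 remained. The lower ends of the intervals allow a larger loss than was measured. Both changes passed when the replicate number was added as a block, though the labels tie DMSO and auxin libraries only by that number.

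Total U4 RNA had 83.9 and 108 scaled counts with DMSO and 6.94 and 7.66 with auxin. Both auxin libraries held 8 raw counts, against 74 and 103 with DMSO, and the groups did not overlap. The log2 change of U4 was -3.70 (SE 0.37, 95% interval -4.43 to -2.97, edgeR adjusted p = 1.67e-22), which leaves 7.68%. Of the 3 tested snRNAs 1 was therefore called lower in total RNA, against 90.3% of 5479 genes tested, while 1.44% of genes were called higher. The median gene changed by -2.34. U2 and U1 lay 2.14 and 2.12 above that median, and U4 lay 1.36 below it, with 6.02% of genes lower still.

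With TMM factors (median gene -0.11) the values in total RNA were 2.04 for U2 and 2.02 for U1, both called higher, and -1.48 for U4, called lower (edgeR adjusted p = 2.48e-15, 1.22e-12 and 0.00117). The sign of the U2 and U1 values thus depends on the scaling, and that of U4 did not under any scaling tried. SCR1, with -0.21, and RPR1, with 0.31, did not pass in total RNA (edgeR adjusted p = 0.215 and 0.169). U2 per kb was 16.5 and 19.2% of SCR1 with DMSO and 15.7 and 21.0% with auxin, and U1 was 10.1 and 9.75% with DMSO and 9.29 and 10.6% with auxin. Both ratios overlapped between the treatments. U4 fell from 0.0350 and 0.0427% of SCR1 to 0.00300 and 0.00394%.

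**Figure D2:**
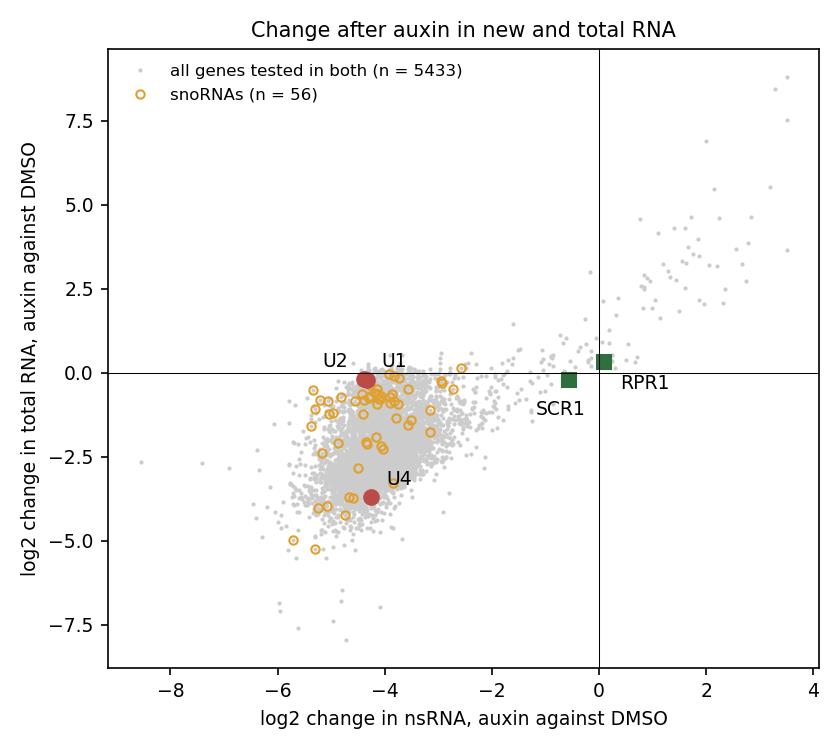
log2 change after auxin in nsRNA (x axis) against that in total RNA (y axis) for the 5433 genes tested in both, with 56 snoRNAs as open circles, U2, U1 and U4 in red and 2 RNA polymerase III transcripts as green squares. U2 and U1 sit near 0 on the y axis and below -4 on the x axis, U4 sits low on both, and SCR1 and RPR1 lie near 0 on both; with TMM factors the y values of U2 and U1 turn to 2.04 and 2.02, and SCR1 turns to 3.48 on the x axis.

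The difference between the 2 kinds of RNA was tested in 1 fit over all 8 libraries. The nsRNA change minus the total RNA change was -4.19 for U2 (SE 0.34, edgeR adjusted p = 5.05e-31) and -4.11 for U1 (SE 0.36, edgeR adjusted p = 1.62e-27). For U4 it was -0.55 with a 95% interval of -1.73 to 0.62 and did not pass (edgeR adjusted p = 0.384). So 2 of 3 snRNAs fell more in new than in total RNA, beside 77.5% of 5933 genes, and 0.0337% of genes had the opposite sign with a call. The interval of U4 lies above the values of U2 and U1. With TMM factors U2 and U1 kept their sign and call (-2.37 and -2.29), and U4 turned to 1.29 with a call (edgeR adjusted p = 0.00845). SCR1 and RPR1, at -0.34 and -0.22, did not pass (edgeR adjusted p = 0.311 and 0.562).

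Within each library the snRNAs were set against each other per kb of transcript. New U1 was 44.4 and 45.4% of new U2 with DMSO and 48.4 and 45.4% with auxin. The exact intervals of the auxin libraries, 44.2 to 53.1% and 42.0 to 49.0%, hold both DMSO values, so no shift of U1 against U2 was detectable in new RNA. In total RNA U1 was 61.2 and 50.8% of U2 with DMSO and 59.2 and 50.5% with auxin. Here the spread within a treatment exceeded the distance between the treatments. Libraries with the same number lay closer, at 61.2 and 59.2% for number 1 and 50.8 and 50.5% for number 2. For number 1 the exact intervals, 60.7 to 61.7% with DMSO and 58.8 to 59.7% with auxin, did not overlap, and for number 2 they did.

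New U4 was 6.97 and 8.01% of new U2 with DMSO and 8.74 and 7.85% with auxin, with exact intervals of 5.84 to 12.6% and 5.57 to 10.8% in the auxin libraries. These values overlapped, so in new RNA the 3 snRNAs kept their proportions within counting error. In total RNA U4 was 0.213 and 0.222% of U2 with DMSO and 0.0191 and 0.0188% with auxin. The auxin intervals, 0.00825 to 0.0376% and 0.00810 to 0.0370%, lay below those with DMSO, 0.167 to 0.267% and 0.181 to 0.269%. The loss of U4 against U2 in total RNA was therefore visible without any scaling factor. These intervals cover counting error only, since PCR copies are not independent molecules.

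**Figure D3:**
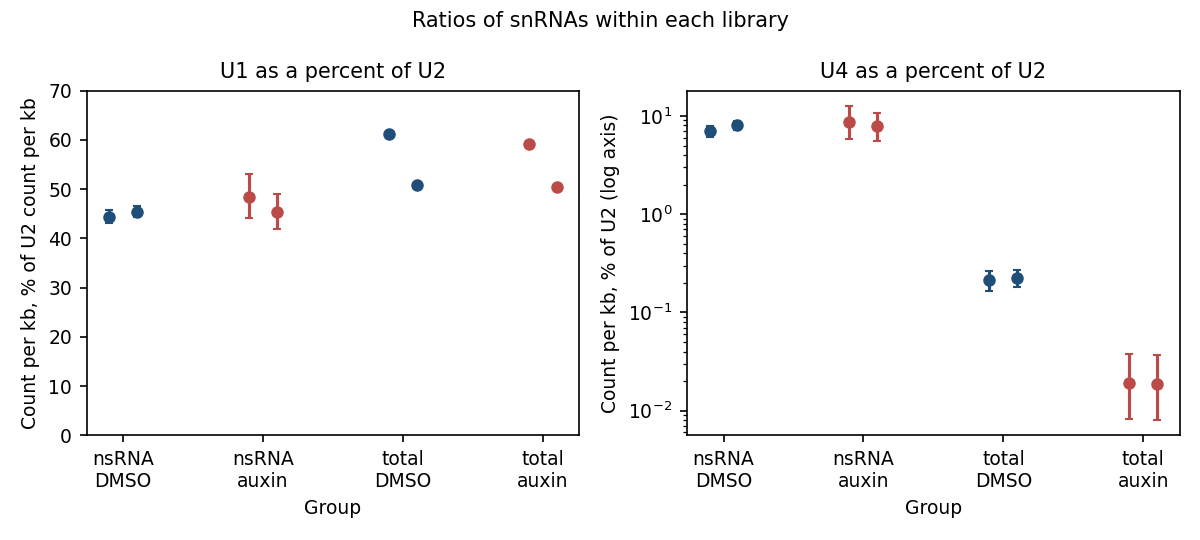
U1 (left) and U4 (right, log axis) as a percent of U2 per kb within each library, in the 4 groups; points are libraries and bars are exact 95% intervals for counting error. U1 stays between 44.4 and 61.2% of U2 throughout, and U4 drops from 0.213 and 0.222% to 0.0191 and 0.0188% in total RNA while its nsRNA intervals overlap.

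The third comparison set new against total RNA within the DMSO libraries, relative to the typical gene, since no absolute scale links the 2 tables. U2 was under-represented in new RNA, with a log2 ratio of -4.52 (SE 0.10, edgeR adjusted p = 9.44e-22), and so was U1, with -4.83 (SE 0.11, edgeR adjusted p = 1.69e-21). U4 lay on the other side, with 0.58 (SE 0.14, edgeR adjusted p = 7.26e-04). Of 5951 genes tested, 35.7% were called lower and 35.9% higher, and 0.386 and 0.235% of genes lay below U2 and U1. SCR1 (-4.82) and RPR1 (-2.61) were called lower as well. U6 had a ratio of -0.58 and did not pass (edgeR adjusted p = 0.513).

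The long form of U5, snR7-L, had 2 and 1 raw counts in nsRNA with DMSO and 0 and 0 with auxin. In total RNA it had 0 and 1 with DMSO and 0 and 0 with auxin. All values lie at or under the floor of 3 counts, so no fold change is given. With no filter on low counts, snR7-L in nsRNA passed (edgeR adjusted p = 0.0324), a call that rests on 3 raw counts in the 2 DMSO libraries together against 0 with auxin. Its 2 neighbours, at 250 and 466 bases, were counted in every library: YGR222W had 554 and 753 raw counts in nsRNA with DMSO and YGR221C had 158 and 191. U6, at 112 bases, had 6 and 8 raw counts with DMSO and 3 and 13 with auxin in nsRNA, and 3 and 6 against 11 and 4 in total RNA. The treatments overlapped in both kinds of RNA, and the auxin change of U6 did not differ between new and total RNA with a call (-1.31, edgeR adjusted p = 0.192), but without nsRNA auxin replicate 2 it passed (-2.69, adjusted p = 0.0417).

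The snRNAs differ in length by more than 7-fold, and U4, the shortest of the 3 tested, is the one that behaved differently in total RNA. Small nucleolar RNAs (snoRNAs), which guide chemical modification or cleavage of ribosomal RNA, are also stable transcripts made mostly by RNA polymerase II, and 75 were listed over a similar range of lengths. This set leaves out snR52, a snoRNA made by RNA polymerase III, which changed by 0.83 in nsRNA and 1.92 in total RNA. In nsRNA 64 of 64 tested snoRNAs were called lower, as were 97.6% of all genes, with a median of -4.15, near the -4.08 of all genes; with TMM factors 16 were lower and 7 higher. In total RNA 51 of 63 were called lower and 12 did not pass, beside 90.3% of all genes called lower, with a median of -0.93 against -2.34 for all genes. That count was 27 without total RNA DMSO replicate 2 and 32 with SCR1 counts as library sizes, and with TMM factors 9 snoRNAs were lower and 38 higher.

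The total RNA values of the snoRNAs went with their length. The 8 snoRNAs of 300 bases or more changed by -0.85 to -0.09 (median -0.55), and those of U2 and U1, at -0.19 and -0.22, fell inside this range. The 11 tested snoRNAs between 200 and 300 bases had a median of -0.82, and the 44 under 200 bases a median of -1.49 with a range of -5.24 to 0.16. These length limits were chosen after the values were seen. Across 63 snoRNAs Spearman's rho of length with the total RNA change was 0.49, and across 64 snoRNAs it was 0.02 with the nsRNA change. These points share the libraries and their depth, and genes are not independent replicates.

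Length also went with the level in counts, and whether shorter RNAs were recovered less well was not tested. The median level in total RNA with DMSO was 387 scaled counts per kb in the shortest group, 1251 in the middle group and 65103 in the longest, and rho was 0.51 across 75 snoRNAs. The ratio of new to total RNA had medians of 0.42, -0.93 and -3.93 in the 3 groups, with rho of -0.70 across 63 snoRNAs. U2 and U1 lay near the longest group in this ratio and U4 near the shortest. Of the 14 snoRNAs of 130 to 190 bases that were tested in total RNA, 1 had a lower value than U4, snR68 at -3.72, and the next was snR45 at -2.38 (median of the 14, -1.004). For 13 of these 14 the nsRNA change was called lower than the total RNA change, beside 77.5% of all genes, and for U4 it was not. The window of 130 to 190 bases was also set after the values were seen. Among the snoRNAs, transcript length thus went with the total RNA change and with the level. Whether the level itself went with the total RNA change was not computed. The part of length and level in the difference between U4 and the pair of U1 and U2 was not tested.

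**Figure D4:**
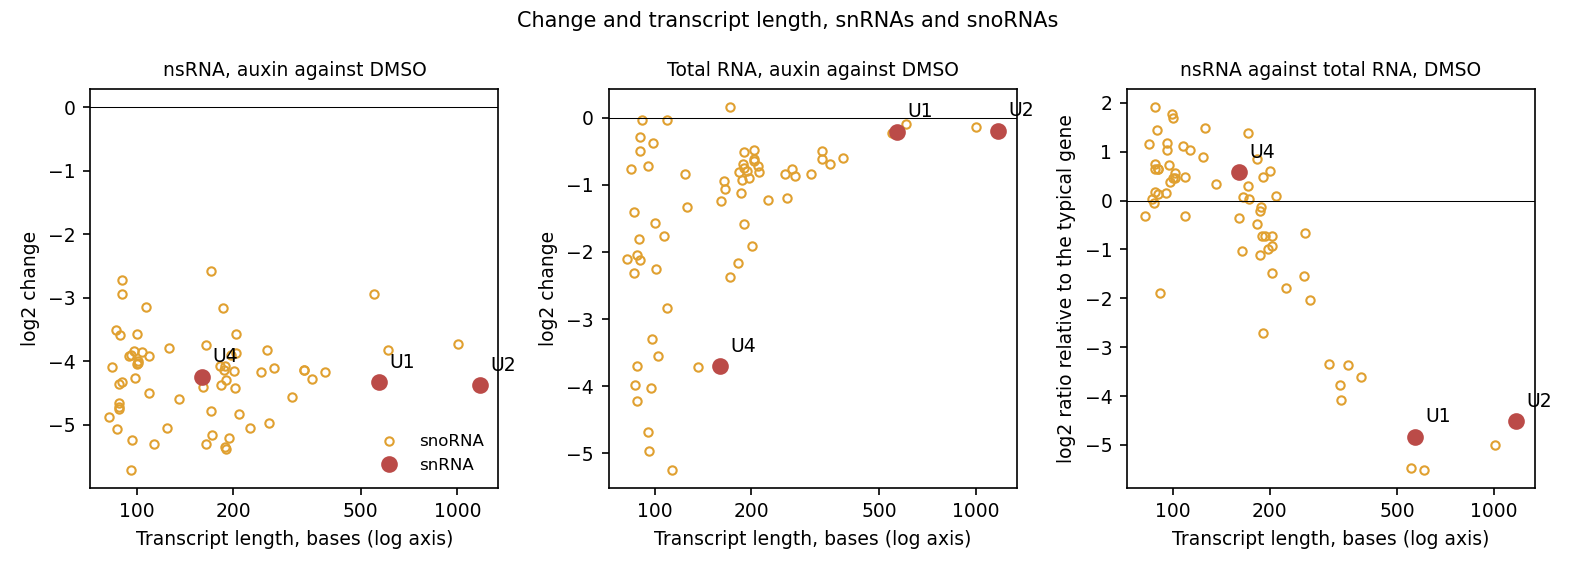
Transcript length in bases (log axis) against the log2 change after auxin in nsRNA (left) and total RNA (middle) and against the log2 ratio of nsRNA to total RNA with DMSO (right), for snoRNAs (open circles) and U2, U1 and U4 (filled). In the left panel values show no trend with length (rho 0.02); in the middle panel snoRNAs of 300 bases or more lie between -0.85 and -0.09 beside U1 and U2, and U4 lies low among RNAs of its length; with TMM factors U1 and U2 turn to 2.02 and 2.04 in the middle panel. In the right panel U2 and U1, at -4.52 and -4.83, lie with the longest snoRNAs, and U4, at 0.58, with the shorter ones.

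Genes beside the snRNAs were examined within 600 bases. SWC5, 316 bases from LSR1, fell, with log2 changes of -4.58 in nsRNA and -3.28 in total RNA (edgeR adjusted p = 2.28e-33 and 2.43e-17). YBR230W-A, 125 bases from LSR1 on the other side, had 43 and 55 raw counts in nsRNA with DMSO and 44 and 39 with auxin. Its scaled change in nsRNA was -1.29 (edgeR adjusted p = 2.82e-04), against -4.38 for LSR1 and -4.58 for SWC5, and with TMM factors it turned to 2.74. In total RNA YBR230W-A changed by -0.25 without a call (edgeR adjusted p = 0.334), and by 0.12 without total RNA DMSO replicate 2. The genes next to snR19, YNL221C and YNL222W, changed by -3.43 and -2.74 in nsRNA, and those next to snR14, TMA20 and SEC3, by -3.50 and -4.09, all called lower. In total RNA SEC3 and TMA20 changed by -1.96 and -1.23, against -3.70 for snR14 between them.

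Genes of spliceosome proteins were followed in a list of 83 symbols, of which 50 were matched to a listed gene. In nsRNA 50 of 50 were called lower, where 97.6% of all genes were, with a median of -3.99 and a range of -4.93 to -2.62. With TMM factors 9 were lower and 14 higher. In total RNA 49 of 49 tested were called lower, where 90.3% of all genes were, with a median of -2.81 against -2.34 for all genes, and with TMM factors 27 were lower and 9 higher. The nsRNA fall was called larger than the total RNA fall at 32 of 50, while the other 18 did not pass, beside 77.5% of all genes. Blocking on the pair of same-numbered libraries gave 41 of 50, beside 4986 of 5933 genes. With TMM factors that difference turned, with 4 genes lower and 24 higher.

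The 4 with the highest mean scaled count over the 8 libraries, not divided by length, were PRP8, BRR2, PRP43 and SNU114. PRP8 is the core protein of the U5 particle that holds the catalytic RNA, and BRR2 the helicase that unwinds U4 from U6. PRP43 is a helicase that takes the spent spliceosome apart, and SNU114 the GTPase of the U5 particle. PRP8 had 10281 and 11614 scaled counts in nsRNA with DMSO and 1207 and 1411 with auxin, a log2 change of -3.06 (edgeR adjusted p = 9.69e-17). In total RNA it had 1882 and 2207 scaled counts with DMSO and 969 and 1079 with auxin, a change of -0.998 (edgeR adjusted p = 1.23e-04). Neither pair of groups overlapped. BRR2 changed by -3.88 in nsRNA and -1.15 in total RNA, PRP43 by -3.65 and -0.79, and SNU114 by -4.14 and -2.26, all called (largest edgeR adjusted p = 0.00243, PRP43 in total RNA). The PRP43 call in total RNA was lost without total RNA DMSO replicate 2 (adjusted p = 0.0943) and without total RNA auxin replicate 1 (adjusted p = 0.124). With TMM factors the nsRNA and total RNA values of PRP8, BRR2 and PRP43 turned positive, and SNU114 lost its calls.

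By particle, the total RNA medians were -3.67 for 4 genes of U2 proteins, -2.95 for the 7 genes of the Sm ring, -2.79 for 7 genes of U1 proteins and -2.18 for 8 genes of the U4, U5 and U6 particle. These groupings were made after the values were known. Each of the 7 Sm genes, whose proteins bind U1, U2, U4 and U5, fell in both kinds of RNA on the deposited scaling, from -4.48 (SMX2) to -3.57 (SMD1) in nsRNA and from -4.49 (SMX2) to -1.91 (SMD2) in total RNA. MSL1, which encodes a protein bound to U2 RNA, changed by -4.63 and -4.60. In total RNA with auxin MSL1 had 1.74 and 0.958 scaled counts, under the floor of 3 raw counts (2.60 and 2.87 scaled). SMX2 had 1.74 and 3.83 there, and YSF3, in the group of U2 proteins, 3.47 and 2.87. The total RNA changes of these genes, and the median of the U2 proteins, thus rest partly on values near or under the floor. DIB1, of the U5 particle, changed by -3.88 in nsRNA and -1.06 in total RNA.

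**Figure D5:**
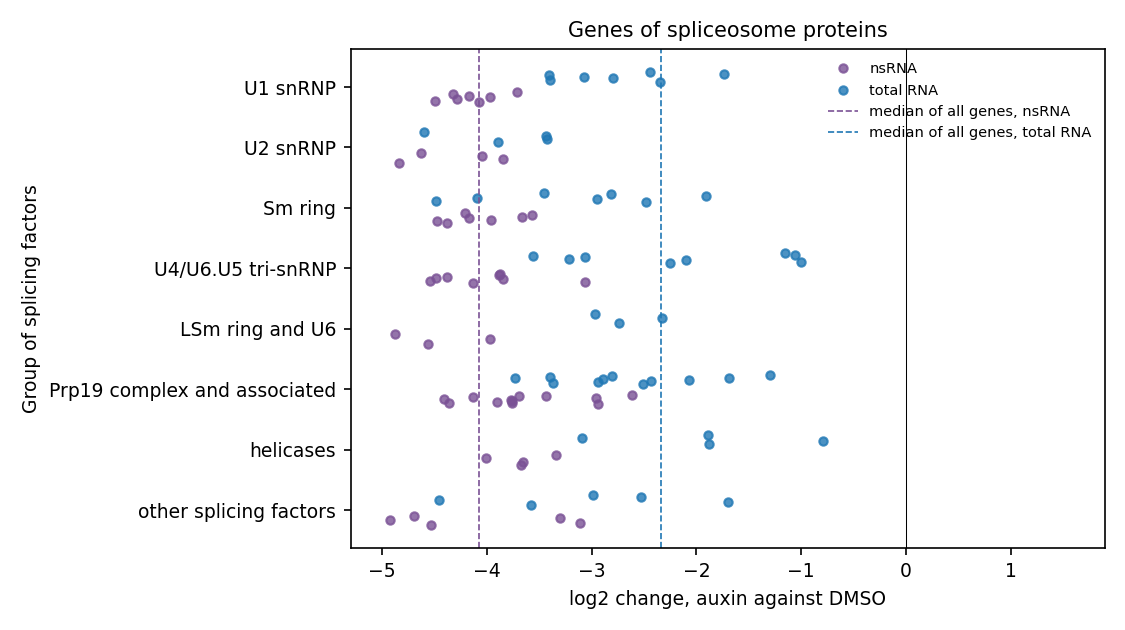
log2 change after auxin of the genes of spliceosome proteins, each point 1 gene, by particle, in nsRNA (purple) and total RNA (blue), with dashed lines at the medians of all tested genes. Each point lies left of 0 on the deposited scaling, with nsRNA values from -4.93 to -2.62 and total RNA values from -4.60 to -0.79. The lowest total RNA value, of MSL1, rests on auxin counts under the floor of 3. With TMM factors 14 genes were called higher in nsRNA and 9 in total RNA.

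A second list of 20 symbols held factors that end, trim or cap-bind snRNAs, and 10 were matched. In nsRNA and in total RNA 10 of 10 were called lower (medians -3.71 and -1.65), and at 10 of 10 the fall was called larger in nsRNA, where the shares of all genes were 97.6, 90.3 and 77.5%. With TMM factors 6 rose and 2 fell in nsRNA, in total RNA 8 rose and 1 fell, and for the difference 6 were lower and 2 higher. The 4 with the highest mean scaled count, not divided by length, were SEN1, DIS3, NAB3 and MTR4. SEN1 is the helicase of the termination pathway (-3.02 in nsRNA and -0.86 in total RNA), and DIS3 the catalytic subunit of the exosome (-3.78 and -1.54). NAB3 is an RNA-binding termination factor (-3.65 and -1.75), and MTR4 a helicase that feeds the exosome (-3.33 and -0.71). All 8 values were called (largest edgeR adjusted p = 0.00652, MTR4 in total RNA), and all 8 turned positive with TMM factors. In total RNA the calls of SEN1 and MTR4 were lost without total RNA DMSO replicate 2 (adjusted p = 0.0712 and 0.18) and without total RNA auxin replicate 1 (adjusted p = 0.0961 and 0.18).

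Which genes varied most like the snRNAs over the 8 libraries was measured as the Euclidean distance between profiles of log2 scaled counts, each centred on its own mean, among 3988 genes. U2 and U1 lay 0.464 apart, and U4 lay 10.4 from U2 and 10.7 from U1, so a mean of the 3 describes none of them well. The 5 genes nearest to that mean were RPL3 (0.367), RPL27B (0.401), RPL36A (0.471), RPS26B (0.568) and YOR285W (0.597). For each snRNA alone, a step added after the values were seen, the nearest gene was RPS1B for U2 (0.480), snR86 for U1 (0.703) and YDR171W for U4 (0.367). RPS1B, a ribosomal protein gene, changed by -4.20 in nsRNA and 0.12 in total RNA, and snR86, the longest snoRNA in the tables, by -3.73 and -0.14. YDR171W changed by -4.24 and -3.39, a messenger RNA that fell in both. The next genes to U4 were VID28 and SCD5, at 0.368 and 0.376.

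In the authors' deposited table, the log2 changes were -4.36 (U2), -4.30 (U1) and -4.21 (U4) in nsRNA. For total RNA the authors' deposited table gave -0.19, -0.21 and -3.55.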

How the data were processed

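The deposited raw counts per gene and the deposited normalized signal, per the file headers, were read for 8 libraries; the signal equalled the count divided by 1 factor per library, from 0.669 to 1.45. Every absolute change rests on these factors, whose origin the labels do not state. Further deposited columns hold log2 changes and p-values of the authors' comparisons. Genome build sacCer3 and bcl2fastq 2.17.1.14 are named in the submitters' processing notes; aligner and counting tool were not given in the sources used, nor was use of strand, and antisense and overlapping genes are therefore uncertain.

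Raw counts were tested in R 4.3.3 with edgeR 4.0.16 (quasi-likelihood F test). The deposited factors set the library sizes, except for nsRNA against total RNA, where TMM did. Genes passed filterByExpr at a minimum count of 10, and calls used a Benjamini-Hochberg adjusted p under 0.05 over all genes tested. The printed SE is the absolute log2 change divided by the square root of the F statistic, and 95% intervals use it. Alternatives were DESeq2 1.42.0, other scalings and filters, a replicate block and each library left out.

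Members and lists were chosen with earlier results of these data known. Named were the members, SCR1, RPR1, snR6 and SUA7 whatever their values, and the 4 genes of each list with the highest mean scaled count. The 5 nearest profiles were also named (pseudocount 0.5, mean scaled count of at least 100 in both tables). Other names were chosen after their values were seen. TLC1 and MFA1 were not matched by name. Per the labels' protocols, nsRNA was purified from total RNA extracts, so same-numbered libraries of a treatment can be read as pairs. These pairs entered only the replicate block alternative, and the reported fits left them out. Over 5038 genes, the correlation of deviations within the pairs was 0.03 with DMSO and 0.06 with auxin.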

Additional observations from a re-analysis of the deposited data

Results flagged for a closer look

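The auxin change differed between new and total RNA, by the edgeR test over all 8 libraries, for U2 (LSR1, nsRNA change minus total RNA change -4.19) and U1 (snR19, -4.11). The same test marked the spliceosome genes PRP8 (-2.07), BRR2 (-2.73), PRP43 (-2.87) and SNU114 (-1.88). It also marked the termination and exosome genes SEN1 (-2.16), DIS3 (-2.24), NAB3 (-1.90) and MTR4 (-2.63), and SUA7 (-0.96). The call of SUA7 was lost without nsRNA DMSO replicate 2 (-0.90), total RNA DMSO replicate 1 (-0.80) or total RNA auxin replicate 2 (-0.82). U4 was not marked (-0.55). Such a difference was called lower at 77.5% of the genes tested.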

How the results depend on the processing

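With TMM factors the calls were 1598 lower against 1719 higher in nsRNA, 2069 against 1893 in total RNA, and 1379 against 1643 for the difference between them; median-of-ratios factors gave 1563 and 1737, 1974 and 2038, and 1645 and 1102. Under these relative scalings U4 in nsRNA was -0.22 and -0.22 without a call, U2 in total RNA 2.04 and 2.08, U1 in total RNA 2.02 and 2.05, and the U4 difference 1.29 and 1.09, both called. Values that turned positive in nsRNA, TMM first, were SCR1 (3.48, 3.49), SUA7 (0.39, 0.40), SEN1 (1.00, 1.01), DIS3 (0.24, 0.24), NAB3 (0.36, 0.37), MTR4 (0.70, 0.71), PRP8 (0.98, 0.98), BRR2 (0.14, 0.14), PRP43 (0.37, 0.37) and YBR230W-A (2.74, 2.75). In total RNA they were SCR1 (2.03, 2.07), SEN1 (1.36, 1.40), DIS3 (0.68, 0.72), NAB3 (0.46, 0.50), MTR4 (1.52, 1.56), PRP8 (1.23, 1.27), BRR2 (1.07, 1.11), PRP43 (1.44, 1.48), YBR230W-A (1.97, 2.01) and, with median-of-ratios, SNU114 (0.0115). For the difference they were SCR1 (1.49, 1.28), RPR1 (1.62, 1.41), SUA7 (0.87, 0.67) and snR6 (0.45, 0.25). With SCR1 counts as library sizes, total U2 was 0.0400 and total U1 0.0042, neither called, the RPR1 difference was 0.13, and 4 genes had a higher difference. With the deposited factors for nsRNA against total RNA, 110 genes were lower and 5586 higher, RPR1 was 0.0504 and snR6 2.03. As a share of summed counts, U2, U1 and U4 changed by -0.53, -0.47 and -0.39 in nsRNA and by 0.47, 0.44 and -3.05 in total RNA. The scaling moves these values by construction, since it moves the median gene.

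Genes higher in nsRNA numbered 32 with DESeq2, 123 with no filter and 11 when means under 50 were left out; in total RNA 169 with no filter, 20 without means under 50 and 147 when 1 fit held all 8 libraries. For the difference, genes higher numbered 1 with DESeq2 and 1 without means under 50, and 0 to 3 with 1 library left out. With 1 library left out, U2, U1 and U4 stayed called in nsRNA, and in total RNA U4 stayed called and U2 and U1 stayed without a call: in nsRNA -4.70 to -4.12, -4.59 to -4.11 and -4.47 to -4.05, and in total RNA -0.34 to -0.03, -0.25 to -0.18 and -3.87 to -3.50. YBR230W-A ranged from -0.54 to 0.12 in total RNA.

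DMSO and auxin libraries share only a number (deviations correlated at -0.06 in nsRNA and 0.07 in total RNA). With the number as a replicate block, U2 (-0.19) and U1 (-0.22) passed in total RNA (edgeR adjusted p = 4.30e-10 and 8.30e-09), and 123 genes were higher. For the difference and for nsRNA against total RNA, blocking on the pair changed no call of U2, U1 or U4. Of 914 alternative values in all, 764 kept their sign and call, or stayed within a set ratio for counts or the libraries' spread for levels. Of the rest, 60 reversed sign, 53 moved beyond those limits, 23 lost a call and 14 gained one. The planned sum of both U5 forms was not run, since the short form was not listed. Low counts limit U5, U6 and U4 in total RNA, and there also genes of spliceosome proteins such as MSL1, SMX2 and YSF3. The cause of the remaining changes was not tested.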
